A study of Mus musculus with 4 samples.

Results

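Genes of cholesterol and fatty acid synthesis were examined in regulatory T cells of mouse spleen, the CD4 T cells that restrain immune responses. The genes were chosen by function from a list of 30 symbols: 17 enzymes of sterol synthesis, 8 enzymes of fatty acid synthesis, and 5 regulators built around the SREBP transcription factors. Of these, 27 had a value on the array, among 30454 genes measured in all. Tm7sf2 and Scd2 were left out because their transcript clusters, the array's units of measurement, carry the symbols of several genes, and Srebf1 was not analysed here. That left 16 sterol enzymes, 7 fatty acid enzymes and 4 regulators. Msmo1 was kept although its cluster lists a second symbol, which is an older name of the same gene.

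The genotypes compared, both on the C57BL/6 background, had 2 arrays each. Mice labelled WT carried a transgene in which Foxp3 drives a fusion of EGFP and Cre recombinase. Mice labelled KO carried the same transgene and, in addition, floxed Bmi1. Bmi1 encodes a Polycomb repressor protein, and the Cre is meant to delete it wherever Foxp3 is expressed. The transgene is therefore shared by both groups and does not distinguish them. CD4 cells from spleens of mice aged 7 to 8 weeks were sorted for green fluorescence, which gave 15000 to 40000 cells per sample. The sample titles describe unstimulated cells, whereas the series text has the cells stimulated with antibodies to CD3 and CD28. Which of these applies to the arrays is unresolved in the sources. Whether each array represents its own mouse is not stated, and the p-values therefore reflect array-to-array spread that may be technical.

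Cells make cholesterol from acetyl-CoA through mevalonate, farnesyl diphosphate, squalene and lanosterol, and they build fatty acids from the same precursor. SREBP2, the product of Srebf2, mainly drives the sterol genes, and SREBP1, from Srebf1, mainly the fatty acid genes. When sterols are scarce, the escort protein SCAP carries the precursor from the endoplasmic reticulum to the Golgi for cleavage, and the INSIG proteins hold it back when sterols are plentiful. T cells raise these pathways when they are activated and grow, and in regulatory T cells the mevalonate pathway is known to be needed for suppressive function.

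The sterol enzymes have a promoter feature in common that the choice of genes did not use. RefSeq promoters of mouse build GRCm38.p6, reaching from 250 bases before to 50 bases after each start site, were at hand for 24 of the 30 listed genes, 32 promoters in all. They were searched on both strands for CCAAT, the core letters of NF-Y sites, for GGGCGG, the core of Sp1 sites, for the E-box CACGTG and for TCACNCCAC, a form of the sterol regulatory element that SREBPs bind. NF-Y and Sp1 are known as partners of SREBPs on such promoters. In the 32 promoters, no match of any of these motifs overlapped a match of another. All 14 sterol enzyme genes with a promoter had CCAAT in at least 1 of their promoters, compared with 2 of 5 fatty acid enzyme genes and 4 of 5 regulators. Counted by gene in the same way, 41.1% of all genes with a promoter had CCAAT, and 42.3% of protein-coding ones. Counted by promoter, 65.6% of the members' promoters held it, against 37.4% of the 32851 promoters of all genes and 38.2% of those of protein-coding genes.

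The promoters of the sterol enzymes held 32 CCAAT matches, 29 of which began before the start site, and 23 of which lay on the strand opposite to the gene. GGGCGG was present for 13 of 14 sterol genes, 2 of 5 fatty acid genes and 5 of 5 regulators. By gene, GGGCGG was present for 38.2% of all genes with a promoter and 49.2% of protein-coding ones. It lay in 75% of the members' promoters, against 35.7% of all promoters and 46.2% of protein-coding ones. CACGTG lay in 18.8% of the members' promoters, in Dhcr7, Hsd17b7, Insig1, Sc5d and Scap, against 7.15% of all. TCACNCCAC was found in 1 member alone, Hmgcs1, and in 1.24% of all promoters. A match describes letters and not a bound site, and the absence of a match covers only this window and this spelling. Base composition was not matched between the sets, and the shares are given as descriptions without a test.

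The promoters of 4 members show the range of these layouts. The 250 bases before the start site are printed 5′ to 3′ on the strand of the gene, with CCAAT, its reverse complement and TCACNCCAC in capitals. Hmgcs1, at chr13:119690101-119690350 on the plus strand, is the promoter with the sterol element. Mvk, at chr5:114444019-114444268 on the plus strand, had the most CCAAT matches of a sterol promoter, 5. Sc5d, at chr9:42264301-42264550 on the minus strand, belongs to the member with the largest difference between the groups. Fasn, at chr11:120824548-120824797 on the minus strand, is the fatty acid enzyme with CCAAT before its start site, and a pair of its matches overlap on opposite strands.
Hmgcs1: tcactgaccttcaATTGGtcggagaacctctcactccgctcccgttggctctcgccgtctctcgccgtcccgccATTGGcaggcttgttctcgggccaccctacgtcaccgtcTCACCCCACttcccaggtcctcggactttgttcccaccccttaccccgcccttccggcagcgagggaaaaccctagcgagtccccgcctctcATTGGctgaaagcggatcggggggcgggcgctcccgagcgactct
Mvk: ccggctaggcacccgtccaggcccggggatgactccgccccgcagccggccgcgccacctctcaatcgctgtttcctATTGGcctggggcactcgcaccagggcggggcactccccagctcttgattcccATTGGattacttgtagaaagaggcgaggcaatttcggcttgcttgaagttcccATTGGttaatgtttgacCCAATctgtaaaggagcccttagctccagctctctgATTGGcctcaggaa
Sc5d: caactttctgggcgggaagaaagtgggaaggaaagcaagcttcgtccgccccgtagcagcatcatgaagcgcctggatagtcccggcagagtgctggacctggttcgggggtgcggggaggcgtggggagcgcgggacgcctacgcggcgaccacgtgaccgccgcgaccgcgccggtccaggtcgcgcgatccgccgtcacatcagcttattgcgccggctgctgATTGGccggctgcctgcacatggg
Fasn: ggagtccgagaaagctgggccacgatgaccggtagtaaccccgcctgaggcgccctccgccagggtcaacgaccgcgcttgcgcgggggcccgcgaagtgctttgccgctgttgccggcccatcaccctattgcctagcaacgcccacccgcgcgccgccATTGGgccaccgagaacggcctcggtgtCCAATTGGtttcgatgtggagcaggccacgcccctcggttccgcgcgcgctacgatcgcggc

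The labelled cell type and the arrays were checked before the comparison. All 7 measured T cell markers lay above the median gene on every array, and their mean log2 level was 13.83 to 14.16. The same held for the 6 measured regulatory T cell markers, with means of 12.93 to 13.10, whereas Foxp3 was not analysed here. These means hide 2 opposite differences. Lrrc32 read 12.05 and 12.28 in the arrays labelled WT and 11.18 and 10.48 in those labelled KO (limma adjusted p 0.297). Gpr83 read 11.88 and 11.07 against 12.51 and 12.74 (limma adjusted p 0.353). The differences of Il2ra, Ctla4, Ikzf2 and Tnfrsf18 were -0.16 to 0.05. Of 9 macrophage and monocyte markers 8 lay below the median gene on all 4 arrays, as did 5 of 6 dendritic cell markers and 3 of 5 B cell markers. Markers of CD8 T cells and NK cells were mixed. Cd8a lay below the median gene on all 4 arrays, whereas Cd8b1 read 9.74 and 10.78 in the arrays labelled WT and 10.71 and 11.26 in those labelled KO. Of 4 NK cell markers 2 lay below the median gene on all 4 arrays, and Eomes, at 6.80 to 8.49, lay above it on each. Bmi1, the targeted gene, read 8.98 and 8.98 in the arrays labelled WT and 9.58 and 9.91 in those labelled KO, above rather than below (difference 0.77, SE 0.16, limma adjusted p 0.300). The sources do not say which exons its cluster covers or which were floxed, so every direction rests on the labels, and the groups are called by them. The array medians over all clusters were 4.65 to 4.72.

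No gene of sterol or fatty acid synthesis passed the test between the genotypes. Differences are KO minus WT on the log2 scale, tested by limma with Benjamini-Hochberg adjustment over all 30454 genes. At an adjusted p under 0.05, 0.00657% of all genes passed, namely Snord14e and Igf2bp3, and 0 of the 27 members. At an unadjusted p under 0.05 it was 2 of the 27 members, or 7.41%, against 10.1% of all genes. One of them, Pmvk, was higher, against 6.32% of all genes higher at that threshold, and the other, Sc5d, was lower, against 3.74%. The members' share was thus no larger than that of all genes. The members' differences ran from -0.49 to 0.38, with a median of 0.08 against 0.01 over all genes. Over the 14465 genes above the median gene on all 4 arrays the median was 0.05. Of those genes 14.3% had an unadjusted limma p under 0.05. The 95% interval lay within a 2-fold difference for 27 of 27 members, against 95.4% of all genes, and within 1.5-fold for 18. For the other 9 members the interval includes a difference of 1.5-fold in at least 1 direction.

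**Figure D1:**
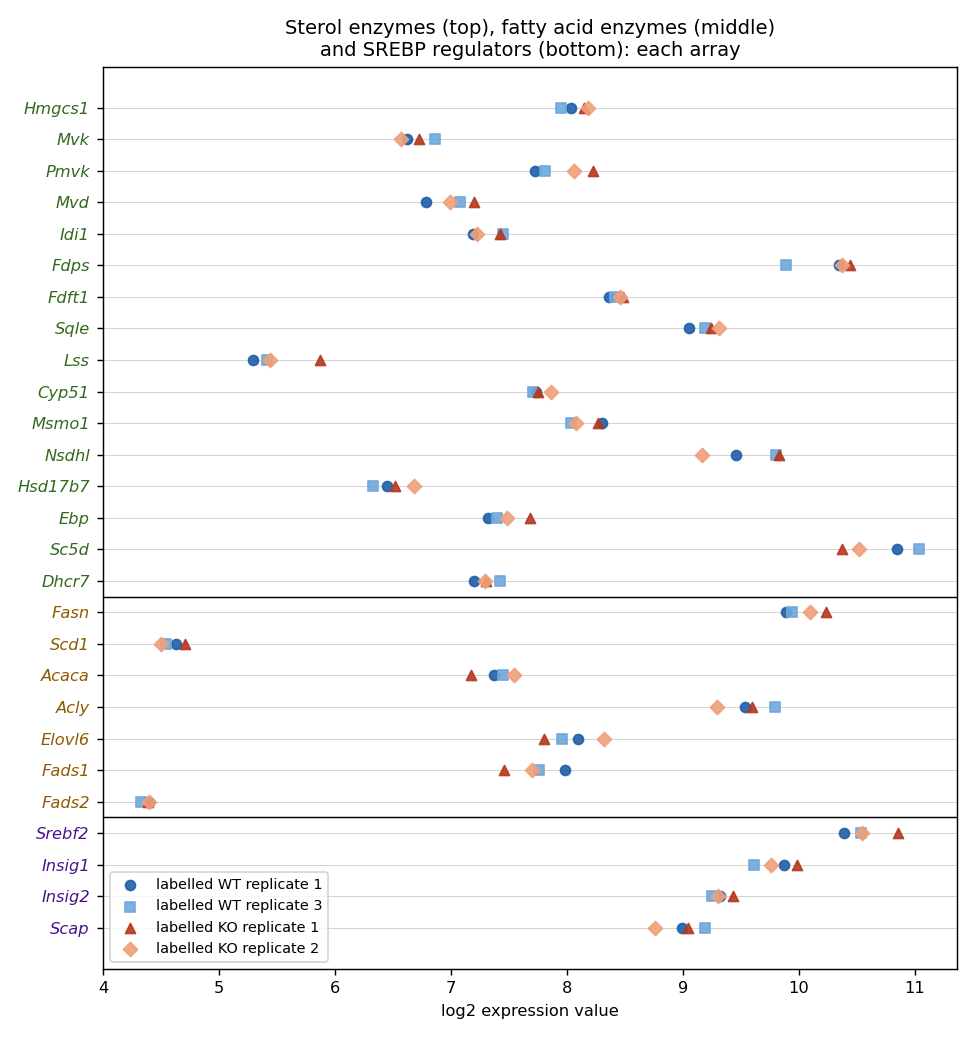
Log2 expression values (x axis) of the 27 measured genes in each of the 4 arrays; blue symbols are the arrays labelled WT and red or orange symbols those labelled KO, with sterol enzymes above, fatty acid enzymes in the middle and SREBP regulators below. Both arrays labelled KO lie to the left of both labelled WT for Sc5d and Fads1 alone, and to the right for 11 genes, Pmvk among them.

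**Figure D2:**
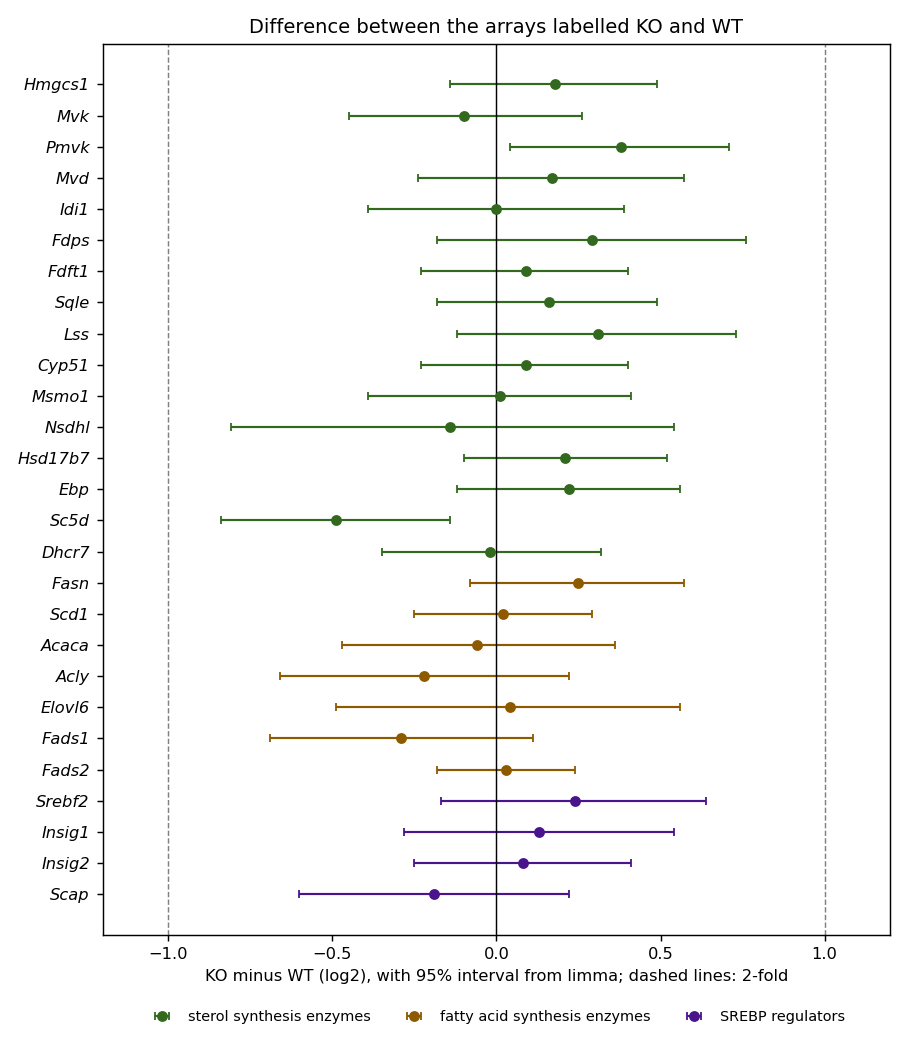
KO minus WT differences (x axis, log2) with 95% intervals from limma, 1 gene per row, coloured by group of genes; dashed lines mark a 2-fold difference. All 27 intervals stay between the dashed lines, and those of Pmvk and Sc5d alone do not cross 0.

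The arrays of both genotypes did not overlap for 13 of the 27 members, against 38.4% of all genes. In 11 of them the arrays labelled KO were higher, against 20.9% of all genes, and in 2 lower, against 17.5%. With each array centred on its median, 10 members did not overlap. Most members are brighter than the typical gene, and among the 14465 genes that lay above the median gene on all 4 arrays 45.4% did not overlap, 29.2% with KO higher. The sterol enzymes made up most of this: 9 of 16 lay higher and 1 lower without overlap, compared with 1 and 1 of 7 fatty acid enzymes and 1 and 0 of 4 regulators. For 9 members the difference between genotypes was larger than the wider of the gaps within a genotype, 33.3% of members against 27.2% of all genes. Among the 14465 genes above the median gene on all 4 arrays that share was 33.2%, so the 27 members together did not stand out on this measure. By group the share was 43.8% of the sterol enzymes, 28.6% of the fatty acid enzymes and 0% of the regulators. The difference between these groups was not tested.

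The first steps of sterol synthesis, from acetoacetyl-CoA to farnesyl diphosphate, were higher in the arrays labelled KO for 4 of 6 genes, lower for 1 and equal for 1. Pmvk encodes phosphomevalonate kinase, which adds the second phosphate to mevalonate. It read 7.72 and 7.81 in WT replicates 1 and 3, and 8.22 and 8.06 in KO replicates 1 and 2. Both arrays labelled KO were above both labelled WT, with a difference of 0.38 (SE 0.13, 1.30-fold, 95% interval 1.03 to 1.64, limma adjusted p 0.448). Without any 1 array its difference was 0.30 to 0.46, and its unadjusted limma p was above 0.05 each time. Fdps makes farnesyl diphosphate, the branch point to sterols and protein prenylation. It read 10.34 and 9.89 in the arrays labelled WT and 10.44 and 10.37 in those labelled KO. WT replicate 3 was low and the other three arrays were close together, so the difference of 0.29 (SE 0.19) became 0.07 without WT replicate 3 and 0.52 without WT replicate 1.

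Hmgcs1, the HMG-CoA synthase whose promoter holds the sterol element, read 8.03 and 7.95 against 8.15 and 8.18, in the same order of replicates. The groups did not overlap, and the difference of 0.18 (SE 0.12, limma adjusted p 0.719) exceeded the gap within each genotype. Mvd, which decarboxylates mevalonate diphosphate, differed by 0.17 (SE 0.16) with overlapping arrays. Idi1, the isomerase of isopentenyl diphosphate, differed by 0.00 (SE 0.15), with a 95% interval of 0.76 to 1.31-fold. Mvk, mevalonate kinase, the next enzyme before Pmvk, differed by -0.10 (SE 0.14) with overlapping arrays, and by 0.03 without WT replicate 3.

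The 3 enzymes that make and close squalene had small differences in 1 direction. Both arrays labelled KO lay above both labelled WT for each, by only 0.03 to 0.05 at the nearest pair. That order was found for 20.9% of all genes and for 29.2% of those above the median gene on all 4 arrays. Lss, which folds the epoxide of squalene into lanosterol, read 5.29 and 5.41 in the arrays labelled WT and 5.87 and 5.44 in those labelled KO. KO replicate 1 stood apart, and the difference of 0.31 (SE 0.17, 1.24-fold, limma adjusted p 0.625) became 0.09 without it and 0.52 without KO replicate 2. Fdft1, squalene synthase, differed by 0.09 (SE 0.12). Sqle, squalene epoxidase, a rate-limiting step after mevalonate, differed by 0.16 (SE 0.13, 95% interval 0.88 to 1.40-fold).

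The 7 measured enzymes from lanosterol to cholesterol were mixed, 4 higher and 3 lower. Sc5d, the desaturase that introduces the double bond at carbon 5 of the sterol ring, read 10.84 and 11.03 in the arrays labelled WT and 10.37 and 10.52 in those labelled KO. Both arrays labelled KO were below both labelled WT, by 0.32 at the nearest pair, and the difference of -0.49 (SE 0.14) was 0.71 times the WT level with a 95% interval of 0.56 to 0.91. Its limma adjusted p was 0.383. Without any 1 array its difference stayed between -0.59 and -0.40, with unadjusted limma p between 0.029 and 0.095.

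Among the enzymes around Sc5d, Ebp, the sterol isomerase that precedes it, differed by 0.22 (SE 0.13), and Dhcr7, the reductase that follows it and completes cholesterol, by -0.02 (SE 0.13). Dhcr7 read 7.20 and 7.42 in the arrays labelled WT and 7.30 and 7.29 in those labelled KO, so the KO pair lay between the WT pair. Hsd17b7, a ketosteroid reductase of the pathway, differed by 0.21 (SE 0.12), and Cyp51, the lanosterol demethylase, by 0.09 (SE 0.12). For Ebp, Hsd17b7 and Cyp51 both arrays labelled KO lay above both labelled WT, by 0.02 to 0.08 at the nearest pair. These were 3 of the 7 enzymes from lanosterol to cholesterol, against 20.9% of all genes and 29.2% of the brighter ones. Msmo1, the methylsterol oxidase, differed by 0.01 (SE 0.16). Nsdhl, which removes the oxidised methyl group, had the widest spread of all members: 9.46 and 9.80 in the arrays labelled WT, and 9.83 and 9.16 in those labelled KO. The gap of 0.67 within the KO pair exceeded its difference of -0.14 (SE 0.26).

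The fatty acid enzymes were not shifted in 1 direction: 4 of 7 were higher and 3 lower, with a median of 0.02. Fasn, the synthase that assembles palmitate, read 9.89 and 9.94 in the arrays labelled WT and 10.23 and 10.09 in those labelled KO. The groups did not overlap, with a difference of 0.25 (SE 0.13, 1.19-fold, 95% interval 0.94 to 1.49, limma adjusted p 0.608). Fads1, the delta-5 desaturase of polyunsaturated fatty acids, went the other way, with 7.98 and 7.76 against 7.46 and 7.70. The nearest arrays of the groups were 0.06 apart, and the difference was -0.29 (SE 0.16, limma adjusted p 0.616).

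Acly, which supplies cytosolic acetyl-CoA from citrate to both pathways, read 9.53 and 9.79 in the arrays labelled WT and 9.59 and 9.29 in those labelled KO. The groups overlapped, and the difference was -0.22 (SE 0.17). Acaca, the carboxylase that commits acetyl-CoA to fatty acids, read 7.37 and 7.45 against 7.17 and 7.54. Both WT arrays lay inside the KO pair, with a difference of -0.06 (SE 0.16). Elovl6, the elongase of palmitate, differed by 0.04 (SE 0.21), with a gap of 0.52 within the KO pair.

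Scd1, a stearoyl-CoA desaturase, and Fads2, the delta-6 desaturase, were the 2 members below the median gene on all 4 arrays. Scd1 lay between 4.50 and 4.71 and differed by 0.02 (SE 0.11). Fads2 lay between 4.33 and 4.40 and differed by 0.03 (SE 0.08). Each has a second, dimmer cluster, between 2.65 and 2.78 for Scd1 and between 3.44 and 3.68 for Fads2. The table carries no background measure, so their narrow intervals can understate a change.

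Of the regulators, Srebf2 read 10.39 and 10.53 in the arrays labelled WT and 10.85 and 10.54 in those labelled KO. The pairs were separated by 0.01 at the nearest arrays, and the difference of 0.24 (SE 0.16, 1.18-fold, limma adjusted p 0.702) became 0.08 without KO replicate 1 and 0.39 without KO replicate 2. Insig1, which retains the precursor and is itself an SREBP target, read 9.87 and 9.61 against 9.98 and 9.76, a difference of 0.13 (SE 0.16). Insig2 read 9.32 and 9.25 against 9.43 and 9.30, a difference of 0.08 (SE 0.13), and overlapped between groups as Insig1 did. Scap, the escort protein, read 8.99 and 9.19 against 9.04 and 8.76. KO replicate 2 was lowest and KO replicate 1 lay inside the WT pair, for a difference of -0.19 (SE 0.16).

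Set against each other, the branches did not separate the genotypes beyond the spread between arrays. The mean log2 value of the 16 sterol enzymes was 7.92 and 7.99 in WT replicates 1 and 3, and 8.09 and 7.98 in KO replicates 1 and 2, a difference of 0.08 between means of 7.95 ± 0.05 and 8.04 ± 0.08 (SD, n = 2 each). KO replicate 1 was highest and KO replicate 2 lay inside the WT pair. The mean of the 7 fatty acid enzymes was 7.41 and 7.40 against 7.34 and 7.41. The sterol mean minus the fatty acid mean was 0.50 and 0.59 in the arrays labelled WT, and 0.76 and 0.57 in those labelled KO. The groups therefore overlapped in this measure, whose difference of 0.12 became 0.03 without KO replicate 1, 0.07 without WT replicate 1 and 0.21 without KO replicate 2. With 2 arrays per genotype, the smallest two-sided p of an exact permutation test is 0.333, so none is given.

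**Figure D3:**
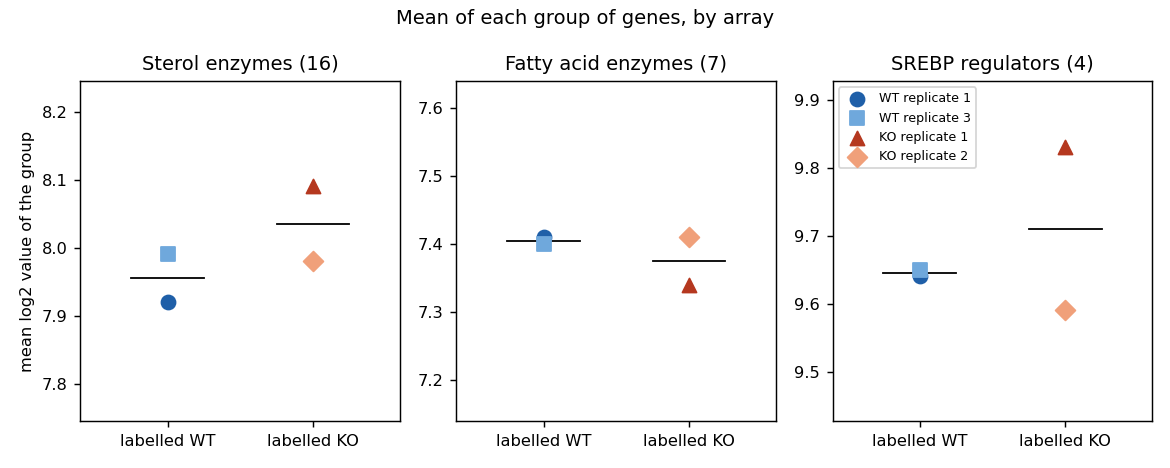
Mean log2 value (y axis, a range of equal width in each panel, not starting at 0) of the 16 sterol enzymes, 7 fatty acid enzymes and 4 regulators in each array; symbols are arrays and bars are the mean of each genotype. In the sterol panel KO replicate 1 (8.09) is highest and KO replicate 2 (7.98) lies between the WT arrays, and in the regulator panel the KO arrays (9.83 and 9.59) lie on either side of the WT pair.

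KO replicate 1 held the highest value for 12 of the 27 members, 7 of 16 sterol enzymes and 3 of 4 regulators, whereas WT replicate 1 held the lowest for 8 of 16 sterol enzymes. Over all 30454 genes, KO replicate 1 held the highest value for 6899 and WT replicate 1 the lowest for 7973, with ties given to the array listed first. Most members are brighter than the typical gene. Among the 14465 genes above the median gene on all 4 arrays, these counts were 4349 and 4985. Some marker lists were also higher in the arrays labelled KO. The mean of 9 measured cell cycle genes was 5.09 and 5.32 in the arrays labelled WT, and 5.56 and 5.46 in those labelled KO. Of the 9 genes 7 were higher, against 51% of all genes. The rise was uneven: Mki67 had 1.17 (SE 0.32, limma adjusted p 0.377), Ccna2 0.63 (SE 0.16, limma adjusted p 0.36), Tpx2 0.65 and Birc5 0.23. Cdk1 had 0.12, Top2a 0.10, Aurkb 0.05, Bub1 -0.04 and Plk1 -0.16. The mean of the 7 T cell markers was 13.83 and 13.97 against 14.16 and 14.07. Cd3e had 0.57 (SE 0.06, limma adjusted p 0.141) and the other T cell markers 0.04 to 0.27. The mean of 6 plasma cell markers, 4 of them below the median gene on every array, was 5.83 and 5.93 against 6.25 and 6.19. Jchain had 1.03 (SE 0.13, limma adjusted p 0.204), Mzb1 0.40, Derl3 0.27, Xbp1 0.21, Tnfrsf17 0.17 and Sdc1 -0.03. For 4 NK cell markers the mean was 4.92 and 5.08 against 5.11 and 5.44. Among those 4, Eomes had 1.08 (SE 0.37), Ncr1 0.13, Klrd1 0.02 and Klrb1c -0.13. Other lists went the other way, with all 5 B cell and all 6 dendritic cell markers lower, at medians of -0.04 and -0.07. The part of these lists in the values of the sterol enzymes was not tested.

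Genes of other parts of lipid metabolism were taken from lists by function. No gene of these lists passed an adjusted p under 0.05, and the counts at an unadjusted p under 0.05 are to be read against the 10.1% of all genes. Among other genes of sterol and isoprenoid synthesis 0 of 11 had such a p, with Lbr, a nuclear membrane protein that is also a sterol reductase, at 0.35 (SE 0.17) and Icmt, which methylates prenylated proteins, at -0.27 (SE 0.15). Of 3 measured genes of SREBP processing and turnover 0 had it, with Rnf139, a ubiquitin ligase of the endoplasmic reticulum, at -0.35 (SE 0.15) and Mbtps1, the site-1 protease that cleaves SREBPs, at 0.12 (SE 0.14). In sterol uptake and trafficking it was 0 of 9. There Mylip, the ubiquitin ligase that degrades the LDL receptor, read 11.39 and 11.86 against 10.93 and 11.27, a difference of -0.53 (SE 0.21). Npc2, which moves cholesterol out of lysosomes, had 0.29 (SE 0.13).

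In the list of sterol efflux, storage and oxidation 0 of 11 had an unadjusted p under 0.05 and 8 were lower, with a median of -0.04. Abcg1, a sterol exporter, differed by -0.21 (SE 0.13), and Sult2b1, a sterol sulfotransferase below the median gene on every array, by -0.17 (SE 0.08). In other fatty acid synthesis and elongation 1 of 20 was higher and 2 lower at that threshold. Tecr, the last reductase of the elongation cycle, had 0.35 (SE 0.09). Oxsm and Mcat, both of mitochondrial fatty acid synthesis, had -0.66 (SE 0.14) and -0.35 (SE 0.13). Limma adjusted p for these 3 genes lay between 0.297 and 0.459.

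Fatty acid uptake and activation had 1 of 11 higher, Fabp5, a fatty acid carrier, at 0.40 (SE 0.15). Fatty acid oxidation had 0 of 16, with Acaa2, a thiolase, at 0.24 (SE 0.11) and Acadvl, the very long chain dehydrogenase, at 0.25 (SE 0.13). In the list of triglyceride synthesis and lipid droplets 2 of 12 were lower and 0 higher, and the median was -0.15. These were Gpam, the first enzyme of glycerolipid synthesis, at -0.35 (SE 0.11) and Plin3, a lipid droplet coat protein, at -0.34 (SE 0.12). In 6 of the 12 both arrays labelled KO lay below both labelled WT, against 17.5% of all genes.

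**Figure D4:**
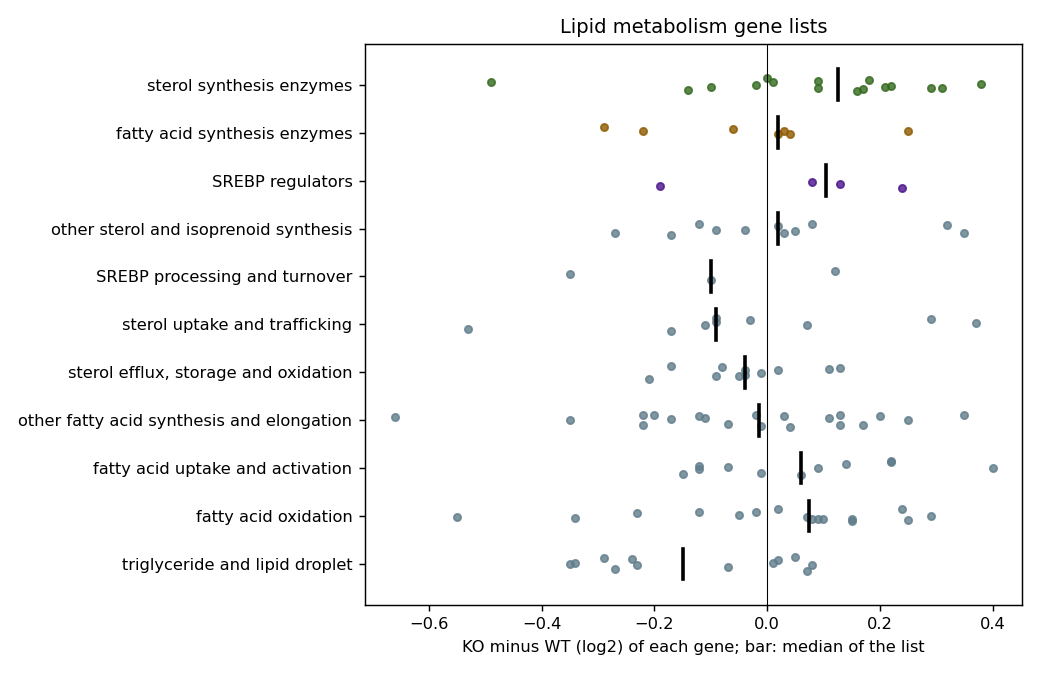
KO minus WT difference (x axis, log2) of each measured gene in 11 lists of lipid metabolism, with a black bar at the median of each list; coloured points are the sterol enzymes, fatty acid enzymes and SREBP regulators. The medians run from -0.15 for triglyceride and lipid droplet genes to 0.12 for sterol enzymes.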

How the data were processed

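Per the labels' protocols, RNA came from a column kit. The protocols go on to real-time PCR, and how the arrays were labelled and hybridised is not stated there. The deposited table holds log2 values of 65528 transcript clusters and 4 arrays, rounded to 2 decimals. RMA and Transcriptome Analysis Console are named, without versions, per the submitters' processing notes. The genome build is not given in the sources. The number of arrays limits the precision.

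Clusters were named by the platform annotation, with symbols updated through RefSeq: 30995 had 1 gene, 1522 several (not used) and 33011 were not listed. For 429 genes with several clusters the one with the highest mean was kept. KO minus WT was tested with limma 3.58.1 in R 4.3.3 (lmFit, eBayes with an intensity trend, two-sided, no filter), with Benjamini-Hochberg adjustment over 30454 genes. Intervals are 95% intervals from that fit. The procedure was tested on simulated data.

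The members, the gene lists and the tests were chosen with earlier results of these data known. The text names every member, gives all arrays for the 4 largest differences of each group of members and for those with an unadjusted p under 0.05, and names from each other list the genes with such a p (at most 4), else the 2 of smallest p. Other genes given with values were chosen for the comparison they stand beside. Alternatives were median-centring, quantile normalization, leaving out dim genes, averaging a gene's clusters, eBayes without trend or with robust settings, and leaving out each array.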

Additional observations from a re-analysis of the deposited data

How the results depend on the processing

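No member passed a limma adjusted p under 0.05 in any setting (smallest 0.239), and without any 1 array 17 of 27 kept their sign. No paired analysis was possible because the groups share only replicate number 1. Over all genes, the 2 calls became 1 after median-centring, 13 among genes at or above the median gene (5.03), and 0 each after quantile normalization, with robust eBayes and with eBayes lacking a trend; without any 1 array they were 0 to 0. The 2 members with an unadjusted p under 0.05 became 1 after median-centring (Sc5d). Without any 1 array the difference was -0.59 to -0.40 for Sc5d and 0.30 to 0.46 for Pmvk. It was 0.07 to 0.52 for Fdps and 0.09 to 0.52 for Lss. The 13 members without overlap became 10 after median-centring, and 17 to 22 without 1 array, where fewer arrays overlap by construction. The fatty acid median of 0.02 was -0.06 without dim genes, since Scd1 and Fads2 leave, and -0.07 to 0.07 without 1 array. The sterol median was 0.08 to 0.13 without 1 array and 0.10 to 0.12 in the other settings. Signs turned for Msmo1 (-0.02) after quantile normalization and Scd1 (-0.01) over all clusters. Without 1 array, signs turned for Mvk (-0.22 to 0.03), Msmo1 (-0.13 to 0.15), Nsdhl (-0.47 to 0.20), Dhcr7 (-0.13 to 0.10), Scd1 (-0.09 to 0.13), Elovl6 (-0.23 to 0.30), Fads2 (-0.01 to 0.07) and Acaca (-0.24 to 0.13). The cause was not tested.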

Other observations

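The lower values of Oxsm and Mcat in the arrays labelled KO led to a look at the other genes of mitochondrial fatty acid synthesis. The list also holds Lias, Lipt1 and Lipt2, of the lipoic acid synthesis and transfer that this pathway feeds. It was chosen after the values of Oxsm and Mcat were seen. Oxsm, the ketoacyl synthase of mitochondrial fatty acid synthesis, read 7.60 and 7.79 in the arrays labelled WT and 6.97 and 7.10 in those labelled KO. Mcat, which loads malonyl groups, read 8.31 and 8.18 against 7.88 and 7.91. Lias, the lipoic acid synthase, read 8.04 and 8.11 against 7.81 and 7.95, also without overlap. Genes without overlap were thus 37.5% of the 8 measured, against 38.4% of all genes. All 3 were lower, against 17.5% of all genes, but 2 of them had prompted the list. The other 5 measured genes overlapped between groups: Mecr had 0.08 (SE 0.12), Cbr4 0.06 (SE 0.15), Ndufab1 0.13 (SE 0.12), Lipt1 0.05 (SE 0.20) and Lipt2 0.16 (SE 0.17). The median of the 8 was 0.06, so the lower values were not shared across the list, and limma adjusted p for Oxsm was 0.297.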
